A study of Rattus norvegicus with 18 samples.

Results

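The proteasome subunit genes were described in cultured rat bone marrow mesenchymal stem cells (MSCs). Members were the genes whose deposited KEGG annotation listed the proteasome pathway and not the antigen processing pathway. Of 47 genes in the proteasome pathway, 4 were in both pathways and were set aside, which left 43 members of 32623 genes. The members comprised 33 tested subunits of the constitutive particle, 3 catalytic subunits of the immunoproteasome (Psmb8, Psmb9 and Psmb10), and 7 further genes.

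MSCs were taken from 2-month-old SD rats, either miR-337-/- (KO) or wild type (WT), and were used at passage 3. All cultures were starved of serum for 8 h and were then given 10% cyclic mechanical stretch (CMS), serum (FBS) or continued serum starvation (SSt) for 24 h by the labels, while the study's methods state a shorter time. The 6 groups were thus KO CMS, KO FBS, KO SSt, WT CMS, WT FBS and WT SSt, with 3 libraries each, and the comparisons asked how stretch and serum changed MSCs and whether loss of miR-337 altered that response. The KO deletion is present in every cell of the animal, and the sources used here do not state if replicate libraries were separate animals or cultures, so p-values measure only the spread between these libraries, which may be technical.

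Each library held 56083000 to 71847969 counts, and the lowest count of any of the 3 immunoproteasome genes in any library was 477. Mir337, the targeted gene, had a count of 0 in all 18 libraries, so these tables do not check the knockout. Among MSC markers, Thy1, Pdgfra and Col1a1 were abundant, while Lepr, whose protein marks these cells in the study, was listed at 0.07 FPKM or less in every library. Macrophage markers were also present: the summed FPKM of 8 of them was 3933 to 4198 in KO CMS, 3756 to 5101 in KO FBS, 2236 to 2348 in KO SSt, 6099 to 6470 in WT CMS, 6285 to 6614 in WT FBS and 3055 to 3202 in WT SSt. The endothelial marker Cdh5 stayed below 0.85 FPKM. The summed FPKM of 4 markers of dividing cells (Mki67, Top2a, Ccnb1, Cdk1) was 14.0 to 21.3 in KO CMS, 19.7 to 57.2 in KO FBS, 233 to 263 in KO SSt, 65.1 to 68.6 in WT CMS, 66.3 to 68.3 in WT FBS and 129.5 to 138 in WT SSt. Within each genotype the libraries labelled SSt had the highest level of these markers, which goes against the quiescence described for starved MSCs, and groups are named by their labels throughout. Replicate 1 of KO FBS stood apart: its correlation with the other KO FBS libraries was 0.975, against 0.978 with the KO CMS libraries, and its sum of dividing cell markers was the lowest of its group at 19.7 FPKM.

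The proteasome is the protease that degrades proteins tagged with ubiquitin. Its barrel, the 20S core, is built of rings of alpha and beta subunits, and 3 of the beta subunits carry the active sites. The 19S cap recognises ubiquitin, removes it, and unfolds and feeds in the substrate with a ring of ATPases. Interferons and other inflammatory signals induce the immunoproteasome, in which Psmb9, Psmb10 and Psmb8 take the places of Psmb6, Psmb7 and Psmb5 and favour peptides that suit MHC class I. The transcription factor NRF1, encoded by Nfe2l1, induces the constitutive subunits when proteasome activity is short, through antioxidant response elements.

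The promoters of the immunoproteasome genes and of Psmb5 are shown because the immunoproteasome genes rose while Psmb5, the counterpart of Psmb8, fell under serum. Of 43 members, 37 had a promoter in RefSeq (build GRCr8, 250 bases before to 50 after the gene start). Each was searched on both strands for 4 motifs, written in capitals below: an interferon-stimulated response element (ISRE, GAAA and GAAA with any 2 bases between them), a gamma-activated site (GAS, TTCNNNGAA), an antioxidant response element (ARE, TGACNNNGC) and CCAAT. A match on the other strand appears as its reverse complement. Of 33469 promoters, 3.92% held the ISRE, 8.87% the GAS, 12.1% the ARE and 37.5% CCAAT, against 5, 4, 8 and 18 of the 37 members. Positions count from the gene start to the first base of the match, and no matches overlapped in these 4 windows.
Psmb8 (chr20:4656982-4657281, minus strand, GAS at -245, CCAAT at -73, ISRE at -4): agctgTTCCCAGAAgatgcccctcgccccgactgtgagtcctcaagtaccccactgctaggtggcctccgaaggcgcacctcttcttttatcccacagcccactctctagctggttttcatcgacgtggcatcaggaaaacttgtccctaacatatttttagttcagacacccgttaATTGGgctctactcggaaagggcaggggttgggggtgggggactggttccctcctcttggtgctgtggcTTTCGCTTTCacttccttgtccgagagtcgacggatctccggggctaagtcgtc
Psmb9 (chr20:4668750-4669049, plus strand, CCAAT at 22): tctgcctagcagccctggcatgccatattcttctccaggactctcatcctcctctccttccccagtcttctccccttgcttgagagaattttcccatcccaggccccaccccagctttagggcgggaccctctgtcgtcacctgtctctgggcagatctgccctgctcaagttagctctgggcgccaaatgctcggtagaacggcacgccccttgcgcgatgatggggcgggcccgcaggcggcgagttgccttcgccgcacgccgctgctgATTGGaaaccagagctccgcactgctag
Psmb10 (chr19:50743243-50743542, minus strand, ISRE at -73 and -17): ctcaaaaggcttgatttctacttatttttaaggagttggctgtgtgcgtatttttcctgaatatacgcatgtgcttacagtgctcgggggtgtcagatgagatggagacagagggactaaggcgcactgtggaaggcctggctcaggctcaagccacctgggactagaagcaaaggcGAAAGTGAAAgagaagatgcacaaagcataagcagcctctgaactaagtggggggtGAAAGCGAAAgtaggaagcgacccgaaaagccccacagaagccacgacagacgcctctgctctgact
Psmb5 (chr15:32047330-32047629, minus strand, ARE at -60): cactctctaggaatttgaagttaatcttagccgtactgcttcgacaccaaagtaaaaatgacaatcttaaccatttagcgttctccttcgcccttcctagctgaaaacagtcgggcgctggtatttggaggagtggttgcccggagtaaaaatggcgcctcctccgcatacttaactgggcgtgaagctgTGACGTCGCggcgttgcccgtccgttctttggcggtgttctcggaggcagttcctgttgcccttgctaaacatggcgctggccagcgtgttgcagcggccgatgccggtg

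Psmb10 held 2 ISRE matches and Psmb8 held 1. Psmb9 held none in its own window. Its neighbour Tap1, a transporter of peptides for MHC class I, starts 457 bases away on the other strand, and the Tap1 window held an ISRE 336 bases before the Psmb9 start. The other 3 members with an ISRE were constitutive, namely Psma4, Psmd7 and Psmb3, so the motif was not confined to the immunoproteasome genes. The classes differ in size: 5 of the 37 members held it in all, among them Psmb8 and Psmb10 of the 3 immunoproteasome genes. The ARE stood in Psmb5 and Psmb6 and in 6 further members. These matches are descriptions of the letters, not measured sites.

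Of the 43 members, 41 passed the filter of at least 1 FPKM (reads scaled to gene length and library depth) in at least 3 libraries. Both others are subunits of tissue-specific proteasomes. Psma8, known from the testis, was listed at 0 in 17 libraries and at 0.028 FPKM in replicate 1 of WT FBS. Psmb11, the catalytic subunit of the thymic proteasome, did not exceed 0.125 FPKM. The constitutive subunits were all expressed. Their mean FPKM ran from 24.3 (Psma4) to 142 (Psmb4) in KO CMS, 24.1 (Psmd11) to 141 (Psmb4) in KO FBS, 28.2 (Psmd11) to 157 (Psma7) in KO SSt, 24.6 (Psma4) to 131 (Psmb4) in WT CMS, 22.7 (Psma4) to 134 (Psmb4) in WT FBS and 25.0 (Psma4) to 139.9 (Psmb4) in WT SSt. They varied little between libraries of a group, with a median coefficient of variation of 5.08% in KO CMS, 5.04% in KO FBS, 2.17% in KO SSt, 2.89% in WT CMS, 3.23% in WT FBS and 2.48% in WT SSt.

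The classes moved in opposite directions under serum and stretch in both genotypes. The 3 immunoproteasome subunits rose by 1.60 to 2.62 times over SSt, while most constitutive subunits had lower values, by less than 2-fold. In KO CMS, 29 of the 33 constitutive subunits had negative log2 values and only 16 were called lower. In KO FBS against KO SSt, 4 members rose and 28 fell past an adjusted p of 0.05 (edgeR quasi-likelihood test, Benjamini-Hochberg over all genes), where 59.8% of 12888 genes were called (30.3% higher, 29.5% lower). In KO CMS against KO SSt, 4 rose and 16 fell, with 61.5% of genes called (30.8% higher, 30.7% lower). In WT FBS against WT SSt, 4 rose and 29 fell, with 66.4% of 12916 genes called (33.7% higher, 32.7% lower). In WT CMS against WT SSt, 4 rose and 26 fell, with 66.8% called (34.6% higher, 32.3% lower). The members that rose were Psmb8, Psmb9, Psmb10 and Psme4 in all 4 comparisons. All members that fell were among the 33 constitutive subunits. A change of at least 2-fold was reached by 1 member in KO FBS (17.1% of all genes), 1 in KO CMS (19.2%), 3 in WT FBS (16.1%) and 2 in WT CMS (16.7%), each of them an immunoproteasome subunit. With library totals only or limma on FPKM, the count for KO CMS was 4 rising and 27 falling, where library totals shifted the median of all genes by -0.11 on the log2 scale. Without replicate 1 of KO FBS, 4 members rose and 26 fell in KO FBS. FBS and CMS were set against the same SSt libraries within a genotype, so their comparisons are not independent. In these bulk samples, fewer cells of a type and less RNA per cell cannot be told apart.

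**Figure D1:**
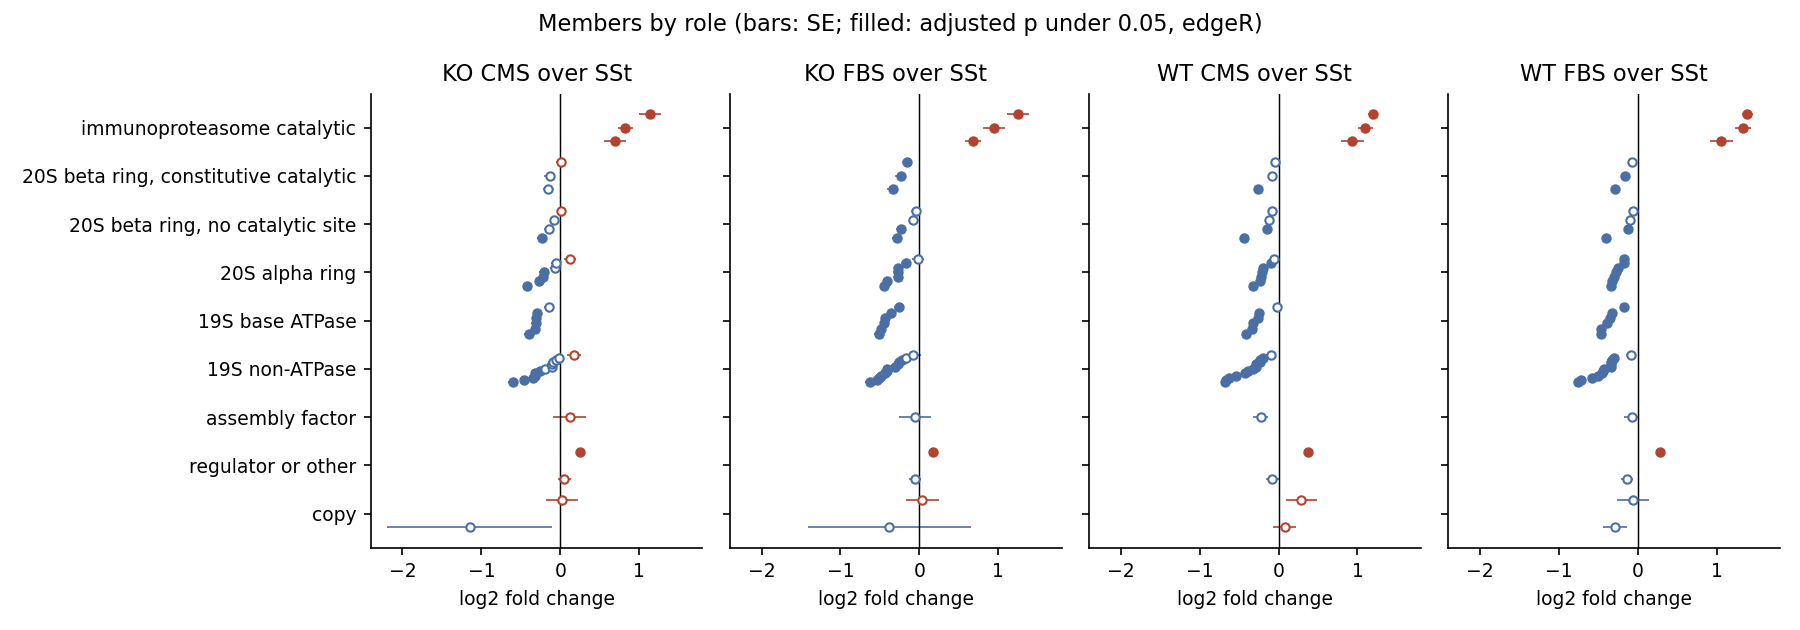
Log2 fold change of each of the 41 tested members (x axis) by role (y axis) in KO CMS, KO FBS, WT CMS and WT FBS, each over SSt of its genotype. Points are members, bars are standard errors, and filled points passed an adjusted p of 0.05. The 3 immunoproteasome subunits lie between 0.67 and 1.39, and the constitutive subunits lie at or below 0 except for 4 in KO CMS, none of which was called.

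Psmb8 carries the chymotrypsin-like site of the immunoproteasome in place of Psmb5. Its FPKM was 14.5, 15.4 and 13.8 in KO CMS, 12.998, 14.5 and 13.3 in KO FBS, and 8.77, 10.2 and 7.69 in KO SSt. In WT it was 14.6, 12.5 and 11.3 under CMS, 11.4, 17.4 and 13.5 under FBS, and 6.84, 6.31 and 6.63 under SSt. Every FBS and CMS library lay above every SSt library of the same genotype. The log2 fold change over SSt was 0.82 ± 0.10 in KO CMS (SE, adjusted p = 0.00011), 0.67 ± 0.10 in KO FBS (0.0004), 0.93 ± 0.14 in WT CMS (0.00025) and 1.06 ± 0.14 in WT FBS (0.0001) by edgeR.

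Psmb9, the counterpart of Psmb6, was the least abundant of the 3. It had 9.39, 12.2 and 12.5 FPKM in KO CMS, 12.9, 12.7 and 12.5 in KO FBS, and 6.38, 5.50 and 4.84 in KO SSt. It had 10.3, 10.5 and 11.4 FPKM in WT CMS, 11.7, 13.9 and 12.4 in WT FBS, and 5.14, 4.29 and 5.30 in WT SSt. The groups did not overlap with SSt, and both genotypes gave much the same levels. Its log2 fold change was 1.14 ± 0.14 in KO CMS, 1.25 ± 0.14 in KO FBS, 1.10 ± 0.10 in WT CMS and 1.33 ± 0.10 in WT FBS (edgeR adjusted p = 0.00011, 7.5e-05, 5.4e-06 and 1.4e-06).

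Psmb10 carries the trypsin-like site in place of Psmb7 and was the most abundant of the 3. Its FPKM was 15.9, 24.6 and 21.4 in KO CMS, 23.8, 25.1 and 27.3 in KO FBS, and 13.7, 14.3 and 13.3 in KO SSt. In WT it was 23.6, 23.2 and 24.1 under CMS, 28.3, 28.8 and 24.6 under FBS, and 10.4, 9.95 and 10.0 under SSt. No FBS or CMS library fell as low as an SSt library, but replicate 1 of KO CMS came close. The log2 fold change was 0.69 ± 0.14 in KO CMS (adjusted p = 0.0024), 0.94 ± 0.14 in KO FBS (0.00045), 1.20 ± 0.07 in WT CMS (1.5e-07) and 1.39 ± 0.07 in WT FBS (5.2e-08) by edgeR. All 3 genes kept their call in all 4 comparisons under each of 15 alternatives, among them each library left out in turn.

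**Figure D2:**
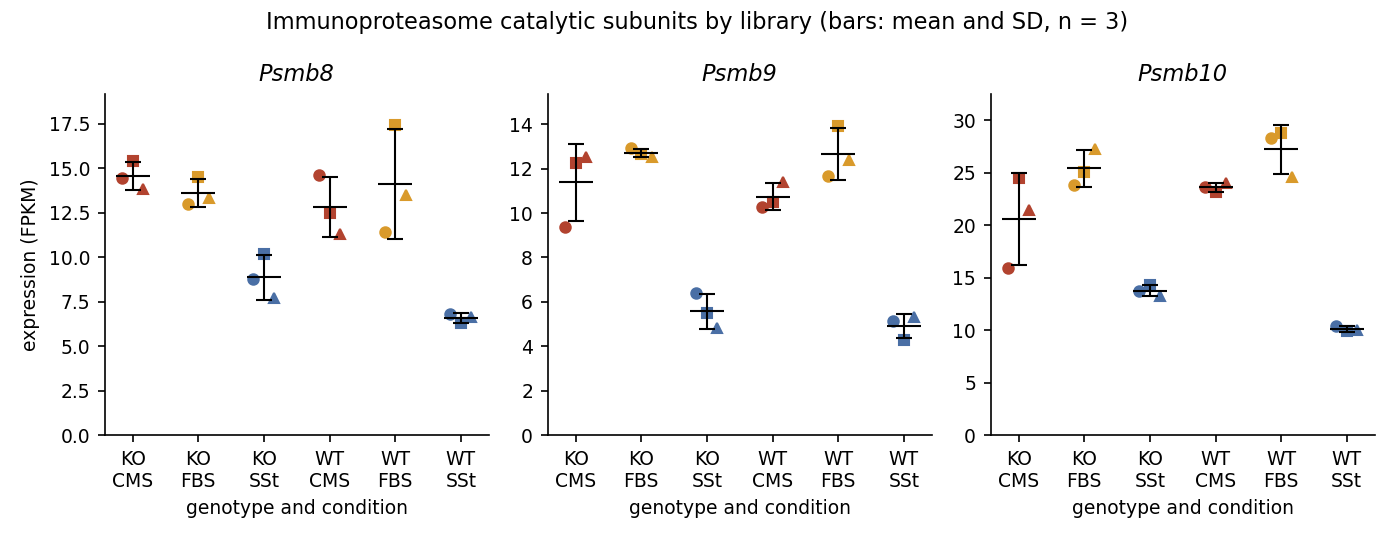
FPKM of Psmb8, Psmb9 and Psmb10 (y axis) in the 3 libraries of each group (x axis). Circles, squares and triangles are replicates 1, 2 and 3, and bars give the mean and SD. Each FBS and CMS library lies above each SSt library of its genotype, and Psmb10 in KO CMS spreads from 15.9 to 24.6 FPKM.

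The constitutive catalytic subunits moved far less. Psmb5 had 69.8, 70.1 and 77.4 FPKM in KO CMS, 65.9, 77.5 and 66.8 in KO FBS, and 88.7, 83.9 and 85.2 in KO SSt. It had 66.5, 74.0 and 71.6 FPKM in WT CMS, 66.9, 70.1 and 66.0 in WT FBS, and 73.5, 72.1 and 75.3 in WT SSt. It fell in KO FBS (log2 fold change -0.24 ± 0.07, adjusted p = 0.019) and in WT FBS (-0.16 ± 0.05, 0.012) by edgeR, and its values under CMS were -0.14 ± 0.07 in KO and -0.08 ± 0.05 in WT, neither past the threshold. The call in KO FBS was lost without replicate 1 of KO SSt, replicate 1 of KO FBS or replicate 3 of KO FBS (adjusted p up to 0.0676). Psmb7, the counterpart of Psmb10, fell in 3 of the 4 comparisons, by 0.34 in KO FBS, 0.26 in WT CMS and 0.29 in WT FBS on the log2 scale. Psmb6 was close to level, with -0.16 ± 0.06 in KO FBS (edgeR adjusted p = 0.037) and values between -0.08 and 0.01 in the other 3 comparisons. The call in KO FBS was lost in 6 of 15 alternatives (adjusted p up to 0.114).

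Set as a share of the FPKM of the 6 catalytic subunits, Psmb8, Psmb9 and Psmb10 made up 15.5%, 18.3% and 16.4% in KO CMS, 18.9%, 18.9% and 20.2% in KO FBS, and 9.74%, 10.2% and 8.93% in KO SSt. In WT the share was 18.7%, 17.3% and 17.9% under CMS, 20.2%, 21.7% and 19.5% under FBS, and 8.76%, 8.26% and 8.80% under SSt. This share is a ratio within a library, so it does not depend on the scaling between libraries. Its mean was higher by 7.09 percentage points in KO CMS than in KO SSt, 9.71 in KO FBS than in KO SSt, 9.36 in WT CMS than in WT SSt and 11.82 in WT FBS than in WT SSt. It was lower by 2.62 points in KO CMS than in KO FBS and by 2.46 points in WT CMS than in WT FBS, without overlap in either genotype. Each of these 6 differences had p = 0.1 by an exact two-sided permutation test, which is the smallest p that 3 libraries against 3 allow, and 0.129 after adjustment over 9 comparisons.

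**Figure D3:**
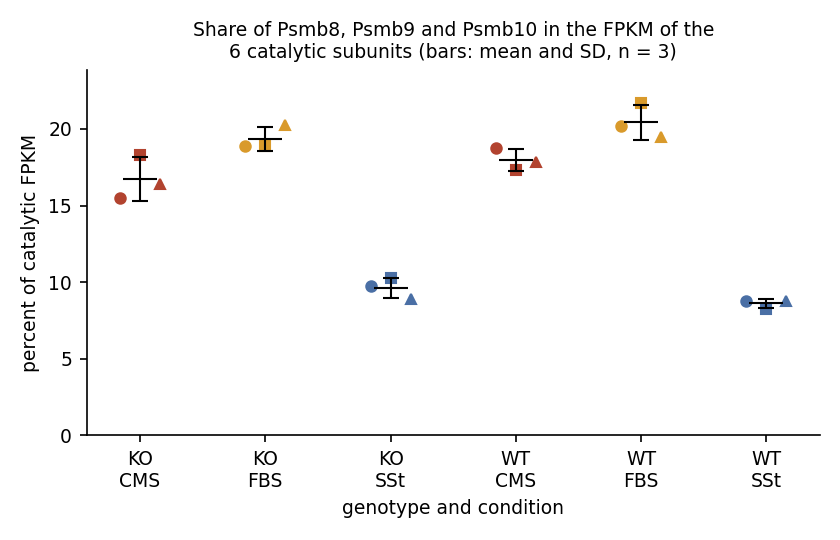
Share of Psmb8, Psmb9 and Psmb10 in the summed FPKM of the 6 catalytic subunits (y axis, percent) in each library by group (x axis), with the mean and SD as bars. The FBS and CMS libraries lie between 15.5% and 21.7%, all above the SSt libraries, which lie between 8.26% and 10.2%.

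Most macrophage markers moved with the immunoproteasome, and some moved the other way. Of 8 macrophage markers, 5 rose in KO CMS, 6 in KO FBS, 6 in WT CMS and 6 in WT FBS over SSt, while 3, 0, 2 and 1 fell. Among all genes tested, 30.8%, 30.3%, 34.6% and 33.7% rose and 30.7%, 29.5%, 32.3% and 32.7% fell. The summed level of the 8 markers, given above, did not overlap between FBS or CMS and SSt in either genotype. Much of the sum was Lyz2, with a mean of 3012 FPKM in KO CMS against 4108 for the sum. Without Lyz2 the sum was 1034 to 1129 FPKM in KO CMS and 755 to 768 in KO SSt. Ptprc (CD45), the defining leukocyte marker, averaged 29.3 FPKM in KO CMS, 37.4 in KO FBS and 17.3 in KO SSt, and 48.7 FPKM in WT CMS, 49.6 in WT FBS and 32.4 in WT SSt. In KO CMS, Csf1r, Cd74 and Aif1 averaged 47.8, 124 and 7.71 FPKM, below 109, 299 and 12.2 in KO SSt. In WT, Adgre1 averaged 21.0 FPKM under CMS and 40.6 under FBS, below 52.1 under SSt. Aif1 averaged 14.5 FPKM in WT CMS, below 17.7 in WT SSt. All 4 markers of dividing cells fell in the same 4 comparisons, where most but not all constitutive subunits had lower values. Their median log2 fold change was -3.92 in KO CMS, -2.62 in KO FBS, -1.24 in WT CMS and -1.22 in WT FBS. For the 33 constitutive subunits the median was -0.20, -0.29, -0.24 and -0.33 in the same order. The part of macrophages or dividing cells in either result was not tested.

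The alpha ring, the gate of the barrel, fell in most of its members. Of its 7 tested subunits, 4 fell in KO CMS, 6 in KO FBS, 6 in WT CMS and 7 in WT FBS. Among all genes tested, 30.7%, 29.5%, 32.3% and 32.7% fell in the same order. The median log2 fold changes of the ring were -0.21, -0.27, -0.21 and -0.27. Psma7, the most abundant constitutive subunit in KO SSt, had 111.1, 106 and 110.2 FPKM in KO CMS, 109.9, 118 and 112 in KO FBS, and 158, 159 and 155 in KO SSt. In WT it had 106, 106 and 109.8 FPKM under CMS, 104, 108 and 108 under FBS, and 124, 125 and 123 under SSt. Within each genotype the FBS and CMS libraries lay below those of SSt, and the log2 fold change was -0.42 ± 0.04 in KO CMS and -0.41 ± 0.04 in KO FBS, against -0.24 ± 0.03 in WT CMS and -0.25 ± 0.03 in WT FBS (edgeR adjusted p = 2.6e-05, 3.4e-05, 7.9e-05 and 5.2e-05). Psma6 fell in WT (-0.21 ± 0.04 under CMS, -0.30 ± 0.04 under FBS) and gave 0.12 ± 0.07 and -0.02 ± 0.07 in KO, neither called.

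The 4 beta subunits without an active site were mixed. Psmb4, the most abundant constitutive subunit in the other 5 groups, was not called in any of the 4 comparisons, with log2 fold changes from -0.12 to 0.01. Psmb1 was not called either, at -0.08 to -0.06. Psmb2 fell in all 4, by 0.23 in KO CMS, 0.23 in KO FBS, 0.14 in WT CMS and 0.12 in WT FBS, and its WT FBS call was lost in 8 of 15 alternatives (adjusted p up to 0.16). Psmb3 fell by 0.29 in KO FBS, 0.44 in WT CMS and 0.40 in WT FBS, and gave -0.15 ± 0.06 in KO CMS (edgeR adjusted p = 0.06).

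The 19S cap had lower medians than the 20S core. The median log2 fold change of its 19 subunits was -0.29 in KO CMS, -0.42 in KO FBS, -0.32 in WT CMS and -0.39 in WT FBS, against -0.14, -0.25, -0.17 and -0.21 for the 14 subunits of the core. The medians of all genes tested were between -0.00 and 0.02. The difference between cap and core is a description and was not tested. Not a single constitutive subunit rose in these comparisons by edgeR, and none did at an unadjusted p under 0.05 or by DESeq2. By DESeq2, 28, 16, 28 and 29 fell in KO FBS, KO CMS, WT CMS and WT FBS. The shares of all genes that fell by edgeR were 29.5%, 30.7%, 32.3% and 32.7% in this order, and those by DESeq2 are not given here.

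The 6 ATPases of the cap fell in nearly all cases. Of these, 5 fell in KO CMS, 6 in KO FBS, 5 in WT CMS and 6 in WT FBS. Among all genes tested, 30.7%, 29.5%, 32.3% and 32.7% fell in the same order. The median log2 fold changes of the ATPases were -0.31, -0.44, -0.29 and -0.37. Psmc3, the most abundant ATPase, had 105, 106 and 109 FPKM in KO CMS, 107, 109 and 107 in KO FBS, and 145, 146 and 141 in KO SSt. It had 112, 109.8 and 109 FPKM in WT CMS, 104, 106 and 106 in WT FBS, and 129.9, 132 and 123 in WT SSt. No library of FBS or CMS reached the SSt range, and the log2 fold change was -0.32 ± 0.04, -0.36 ± 0.04, -0.24 ± 0.03 and -0.32 ± 0.03 in KO CMS, KO FBS, WT CMS and WT FBS (edgeR adjusted p from 1.1e-05 to 0.00013). Psmc6 was the ATPase that moved least, at -0.15 ± 0.06 in KO CMS and -0.01 ± 0.04 in WT CMS, neither called.

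The lowest called values were in the lid of the cap, the part that holds the deubiquitinase Psmd14. Psmd12, a scaffold subunit of the lid, had 34.5, 30.8 and 34.4 FPKM in KO CMS, 35.2, 34.0 and 32.4 in KO FBS, and 55.0, 55.1 and 53.3 in KO SSt. In WT it had 32.6, 31.5 and 31.5 FPKM under CMS, 31.5, 29.0 and 31.7 under FBS, and 50.5, 49.5 and 48.5 under SSt. All 12 FBS and CMS libraries lay below all 6 SSt libraries, with log2 fold changes of -0.60 ± 0.06 in KO CMS, -0.63 ± 0.06 in KO FBS, -0.66 ± 0.04 in WT CMS and -0.72 ± 0.04 in WT FBS (edgeR adjusted p from 1.5e-07 to 5e-05). Psmd13, another scaffold subunit of the lid, fell by 0.46, 0.54, 0.53 and 0.50 in the same 4 comparisons.

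Psmd8, also in the lid, had 65.1, 73.6 and 74.3 FPKM in KO CMS, 60.4, 59.6 and 55.97 in KO FBS, and 84.5, 81.1 and 81.8 in KO SSt. It had 61.4, 59.8 and 57.4 FPKM in WT CMS, 54.8, 59.9 and 55.9 in WT FBS, and 97.3, 90.7 and 92.3 in WT SSt. The groups did not overlap with SSt, though KO CMS stood nearer to it than the others did. The log2 fold change was -0.75 ± 0.04 in WT FBS (adjusted p = 2.2e-07), the lowest value of any called member, and -0.67 ± 0.04 in WT CMS (4.9e-07), -0.43 ± 0.07 in KO FBS (0.00057) and -0.11 ± 0.07 in KO CMS (0.2) by edgeR. Psmd3 fell by 0.58 in WT FBS and 0.63 in WT CMS, against 0.42 in KO FBS and 0.35 in KO CMS. Psmd14 itself fell by 0.32 in KO CMS, 0.48 in KO FBS, 0.24 in WT CMS and 0.34 in WT FBS.

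**Figure D4:**
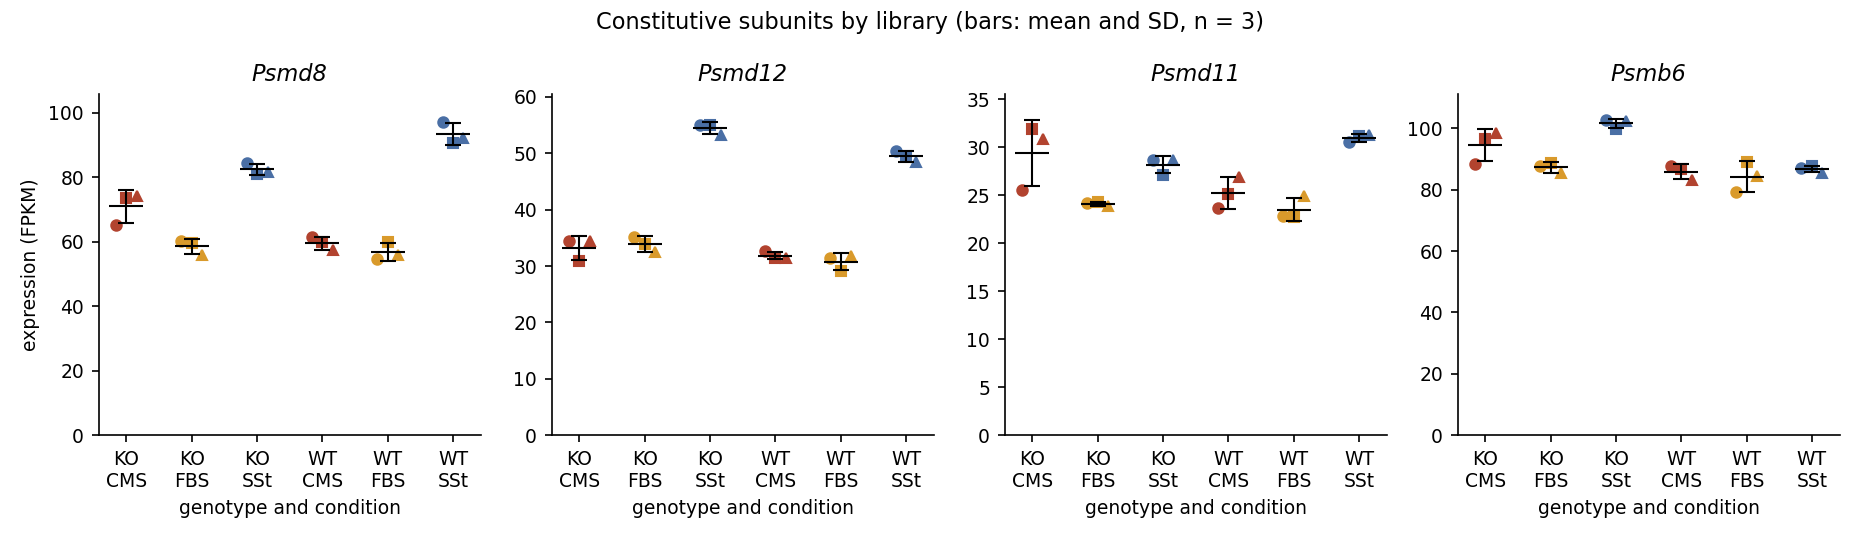
FPKM (y axis, from 0) of the lid subunits Psmd8, Psmd12 and Psmd11 and of the catalytic subunit Psmb6 in the 3 libraries of each group (x axis). Circles, squares and triangles are replicates 1, 2 and 3, and bars give the mean and SD. Psmd12 lies at 29.0 to 35.2 FPKM in all FBS and CMS libraries and at 48.5 to 55.1 FPKM in SSt, while Psmb6 in WT stays between 79.1 and 89.1 FPKM.

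Among the other cap subunits, Psmd2, a base scaffold and the most abundant non-ATPase subunit, fell by 0.27 in KO FBS, 0.28 in WT CMS and 0.33 in WT FBS, and gave -0.10 ± 0.05 in KO CMS (edgeR adjusted p = 0.1). The ubiquitin receptor Adrm1 fell by 0.25 in KO FBS, 0.42 in WT CMS and 0.46 in WT FBS, and gave -0.01 ± 0.06 in KO CMS. Psmd11, a lid subunit, fell by 0.32 in WT CMS and 0.43 in WT FBS and was not called in KO (0.17 ± 0.08 under CMS, -0.17 ± 0.08 under FBS). Sem1, a small lid protein, was the only cap subunit not called in any of the 4 comparisons, at -0.20 to -0.08.

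Of the regulators, Psme4, which encodes the nuclear activator PA200, rose in all 4 comparisons. It had 21.8, 19.7 and 21.0 FPKM in KO CMS, 19.9, 21.3 and 20.3 in KO FBS, and 18.7, 18.7 and 19.4 in KO SSt. In WT it had 26.5, 26.7 and 26.7 FPKM under CMS, 25.0, 24.7 and 26.0 under FBS, and 20.2, 19.96 and 20.5 under SSt. Within each genotype the FBS and CMS libraries lay above those of SSt, and the rise was small: 0.25 ± 0.05, 0.18 ± 0.05, 0.37 ± 0.03 and 0.28 ± 0.03 in KO CMS, KO FBS, WT CMS and WT FBS (edgeR adjusted p = 0.0013, 0.0089, 1.7e-06 and 1.3e-05). The call in KO FBS was lost without replicate 2 of KO SSt, on limma with FPKM and with library totals only (adjusted p up to 0.09). Psmf1, a proteasome inhibitor in the test tube, was not called, at -0.13 to 0.05.

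Pomp, the chaperone that matures the core, shares reads with its near copy LOC100911238, and the split between them is uncertain. Pomp had 110.1, 59.0 and 106.9 FPKM in KO CMS while the copy had 17.4, 51.5 and 0.258, so the library with the least Pomp had the most of the copy. Their sum was 107.2 to 127.5 FPKM in KO CMS, 114.5 to 138 in KO FBS, 143 to 149 in KO SSt, 116 to 121 in WT CMS, 114 to 122 in WT FBS and 119 to 123 in WT SSt. Neither gene was called in these 4 comparisons. LOC100360846, a copy of Psmb6, stayed at 2.82 to 4.51 FPKM and was not called.

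The genes set aside by the pathway rule hold the PA28 activators of the proteasome, which moved with the immunoproteasome in part. Psme1 had 82.6, 85.6 and 87.7 FPKM in KO CMS, 86.9, 97.1 and 91.2 in KO FBS, and 58.0, 52.5 and 60.6 in KO SSt. In WT it had 89.0, 87.6 and 93.4 FPKM under CMS, 94.5, 92.5 and 93.9 under FBS, and 44.8, 45.2 and 48.5 under SSt. Its log2 fold change was 0.69 in KO CMS, 0.74 in KO FBS, 0.94 in WT CMS and 0.98 in WT FBS, and its partner Psme2 rose by 1.01, 0.90, 0.62 and 0.82. Psme3, which forms a nuclear activator of its own, fell by 0.52, 0.57, 0.36 and 0.31. All 12 of these changes passed the adjusted p in edgeR. Ifng, the fourth gene set aside, was listed at 0 in all 18 libraries and was not tested.

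Interferon receptors, interferon-responsive factors and the peptide transporters Tap1 and Tap2 were measured as a further list of 9 genes, 8 of them tested. In KO CMS 5 rose and 2 fell, in KO FBS 6 rose, and in WT CMS and WT FBS 5 rose, with medians of 0.78, 0.84, 0.33 and 0.34. The shares of all genes called higher were 30.8%, 30.3%, 34.6% and 33.7% in KO CMS, KO FBS, WT CMS and WT FBS. Those called lower were 30.7%, 29.5%, 32.3% and 32.7%. Irf1, the factor that binds interferon response elements, had 18.1, 25.3 and 25.6 FPKM in KO CMS, 26.7, 25.2 and 25.4 in KO FBS, and 14.3, 12.7 and 13.5 in KO SSt. It had 17.5, 16.7 and 17.2 FPKM in WT CMS, 19.2, 20.8 and 21.0 in WT FBS, and 8.49, 9.57 and 9.28 in WT SSt. It rose by 0.88, 0.99, 0.88 and 1.12 in KO CMS, KO FBS, WT CMS and WT FBS, and no FBS or CMS library reached down to SSt. The receptor Ifngr1 rose by 1.76, 1.62, 0.47 and 0.39 and Tap1 by 0.68, 0.69, 0.68 and 0.67.

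The 6 genes listed with NRF1 were Nfe2l1, Ddi2, Ngly1, Vcp, Nfe2l2 and Nfrkb. Nfe2l2 encodes the related factor NRF2 and Nfrkb lies outside this axis, so their counts do not describe NRF1 alone. Of the 6 genes, 3 rose in KO CMS, 4 in KO FBS, 3 in WT CMS and 5 in WT FBS, and 0, 1, 1 and 1 fell. Of all genes tested, 30.8%, 30.3%, 34.6% and 33.7% rose in these comparisons, and 30.7%, 29.5%, 32.3% and 32.7% fell. Nfe2l1 had 86.5, 91.4 and 88.8 FPKM in KO CMS, 70.9, 68.0 and 73.6 in KO FBS, and 58.2, 57.9 and 60.1 in KO SSt, against 75.8, 71.6 and 70.0 FPKM in WT CMS, 72.6, 74.4 and 69.3 in WT FBS, and 61.1, 62.3 and 63.7 in WT SSt. Its log2 fold change was 0.71, 0.33, 0.19 and 0.17 in KO CMS, KO FBS, WT CMS and WT FBS, each called. Vcp, the segregase that releases NRF1 from the membrane, fell by 0.21 in KO FBS, 0.11 in WT CMS and 0.17 in WT FBS.

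Stretch against serum gave fewer calls than either did against SSt, among members and among all genes. In KO CMS against KO FBS, 8 members rose and 0 fell by edgeR (10 and 0 by DESeq2), with 14.8% of all genes called (6.73% higher, 8.09% lower). The 8 were the constitutive subunits Psma1, Psmc1, Psmd1, Psmd2, Psmd7, Psmd8, Psmd11 and Adrm1. At an unadjusted p under 0.05, 15 constitutive subunits were higher and 0 members were lower. The share of all genes at that threshold is not given here, so this count has no background beside it. The largest of the 8 called by edgeR were Psmd11 (0.34 ± 0.08, adjusted p = 0.029) and Psmd8 (0.33 ± 0.07, 0.015). Their calls were lost in 7 and 3 of 15 alternatives. The count was 9 without replicate 1 of KO FBS, but 0 without replicate 3 of KO FBS or replicate 3 of KO CMS, 1 without replicate 2 of KO CMS, 2 without replicate 2 of KO FBS or replicate 3 of KO SSt, and 3 without replicate 1 or 2 of KO SSt. In WT CMS against WT FBS, 3 members rose and 0 fell by edgeR and by DESeq2, where 8.94% of genes were called (3.91% higher, 5.03% lower). The 3 that rose were Psma4 (0.12 ± 0.03), Psmc1 (0.13 ± 0.03) and Psmc6 (0.15 ± 0.04), with adjusted p of 0.04, 0.043 and 0.041. At an unadjusted p under 0.05, 11 members were higher and 2 were lower, the 2 being Psmb9 and Psmb10. No share of all genes at that threshold is given here either. With 1 library left out the count was at most 2. It was 0 without replicate 1 or 2 of WT FBS or replicate 1 or 2 of WT CMS, and 1 without replicate 2 or 3 of WT SSt or replicate 3 of WT CMS. Psmb8, Psmb9 and Psmb10 were not called in either genotype. Their log2 values for CMS over FBS were 0.15 ± 0.10, -0.11 ± 0.14 and -0.25 ± 0.14 in KO, and -0.13 ± 0.14, -0.23 ± 0.10 and -0.20 ± 0.07 in WT.

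The response itself was then compared between genotypes, as the KO change over SSt minus the WT change over SSt in a fit of all 18 libraries. For serum, 4 members were higher and 2 lower in KO, with 35.7% of 13317 genes called (18.5% higher, 17.2% lower). For stretch, 8 were higher and 3 lower, with 44.8% called (21.6% higher, 23.2% lower). Both shares of members lie below these backgrounds. Without TMM, scaling to library totals only turned the split to 1 higher and 12 lower for serum and to 4 higher and 12 lower for stretch, and limma on FPKM gave 1 and 13 for serum and 5 and 12 for stretch. Library totals shifted the median of all genes by -0.11 for serum and -0.14 for stretch, and limma shifted it by -0.11 for stretch. The split of calls therefore moved with the scaling, while none of the members called here changed sign in any alternative. For serum the count was 3 without replicate 1 or 3 of WT SSt, replicate 2 of WT FBS, replicate 2 of WT CMS, replicate 2 or 3 of KO SSt, or replicate 1 or 2 of KO FBS.

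Psmb10 rose less in KO than in WT, by -0.50 ± 0.16 under CMS (edgeR adjusted p = 0.02) and -0.44 ± 0.16 under FBS (0.045). As its values by library show, the FBS groups overlapped between genotypes and KO SSt lay above WT SSt (0.37 ± 0.11, adjusted p = 0.015). The call under CMS held in all 24 alternatives (adjusted p from 0.00243 to 0.0427), and the value without replicate 1 of KO CMS, the lowest library, was the smallest, at -0.33. The call under FBS was lost in 16 of 24 alternatives (adjusted p up to 0.103). The difference in response was -0.10 ± 0.19 under CMS and -0.37 ± 0.19 under FBS for Psmb8, and 0.04 ± 0.17 and -0.07 ± 0.17 for Psmb9, none of them past the threshold. Psmb8 passed it under FBS without replicate 1 of WT FBS (adjusted p = 0.0366).

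Among constitutive subunits, Psmd8 differed most: 0.57 ± 0.08 under CMS (edgeR adjusted p = 4.4e-05) and 0.33 ± 0.08 under FBS (0.005), in every one of 24 alternatives. Its level in KO SSt lay below that in WT SSt without overlap (-0.25 ± 0.06, adjusted p = 0.002), and in KO CMS above that in WT CMS without overlap (0.32 ± 0.06, 0.00042). Psmd11 followed the same order in its means, but its CMS groups overlapped, with replicate 1 of KO CMS below replicate 3 of WT CMS. It had 25.5, 31.9 and 30.8 FPKM in KO CMS, 24.2, 24.3 and 23.8 in KO FBS and 28.7, 27.1 and 28.7 in KO SSt, against 23.7, 25.1 and 26.9 in WT CMS, 22.8, 22.8 and 24.9 in WT FBS and 30.5, 31.1 and 31.2 in WT SSt, which made a difference of 0.50 ± 0.10 under CMS (0.00089) and 0.28 ± 0.10 under FBS (0.041). Adrm1 gave 0.42 ± 0.08 and 0.22 ± 0.08, and Psma6 gave 0.33 ± 0.08 and 0.30 ± 0.08, for CMS and FBS. The FBS calls of Psmd11 and Adrm1 were lost in 14 and 18 of 24 alternatives. Psma7 fell further in KO under both, with a difference of -0.17 ± 0.04 under CMS (0.005) and -0.15 ± 0.04 under FBS (0.017).

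**Figure D5:**
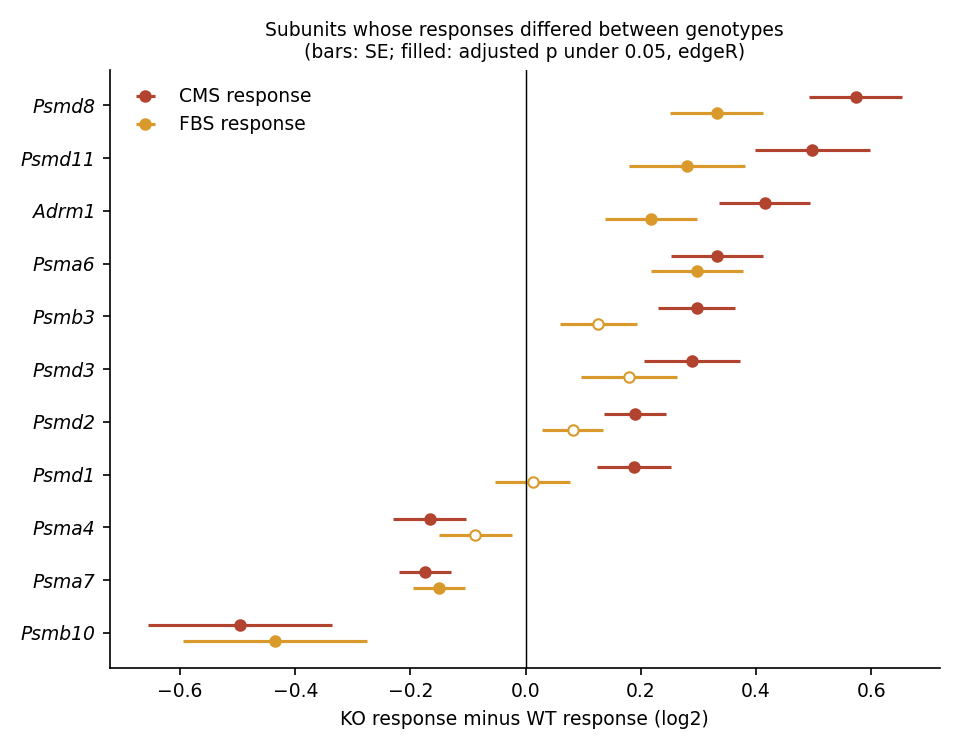
KO response minus WT response on the log2 scale (x axis) for the 11 members called in either contrast (y axis), for CMS over SSt and FBS over SSt. Bars are standard errors and filled points passed an adjusted p of 0.05. Psmd8 is farthest to the right at 0.57 for CMS, and Psmb10 farthest to the left at -0.50.

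Levels in KO were compared with WT within each condition. The genotypes were deposited as separate tables, so genotype and any difference in processing between them cannot be told apart. In SSt, 12 members were higher and 3 lower in KO, with 47.4% of 13317 genes called (24.2% higher, 23.2% lower). The largest were Psmb10 (0.37), Psmb8 (0.36 ± 0.13, edgeR adjusted p = 0.04) and Psma7 (0.27 ± 0.03, 8e-06), and the 3 lower were Psmd8 (-0.25), Psmd11 (-0.21 ± 0.07, 0.024) and Psme4 (-0.17 ± 0.04, 0.0015). The call of Psmb8 was lost in 7 of 24 alternatives (adjusted p up to 0.177), 5 of them without 1 library of either SSt group other than replicate 3 of KO SSt, and that of Psmd11 in 5 (up to 0.118). The count was 7 without replicate 3 of WT SSt and 8 without replicate 1 of KO SSt. With library totals only, 21 were higher and 2 lower, and limma on FPKM gave 21 and 1.

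In FBS, 5 members were higher and 1 lower in KO, with 25.7% of genes called (13.5% higher, 12.3% lower). These were Psma4 (0.13), Psma6 (0.21), Psma7 (0.12), Psmd3 (0.20) and Psmd12 (0.17), with Psme4 at -0.27. The Psma4 call was lost in 19 of 24 alternatives (adjusted p up to 0.172), those of Psma6, Psma7, Psmd3 and Psmd12 in 2, 4, 3 and 2, and that of Psme4 in 0. The count was 2, with 1 higher, without replicate 1 of KO FBS and 3 without replicate 2 of KO FBS. In CMS, 18 were higher and 1 lower, with 39.7% called (18.7% higher, 21.0% lower), all 18 constitutive and between 0.09 and 0.33. Psmd8 (0.32), Psmd3 (0.31) and Adrm1 (0.33) were the highest, and Psme4 (-0.29 ± 0.04, adjusted p = 2.3e-05) was the lower one. With library totals or limma on FPKM, 8 were higher and 1 lower in CMS. Psme4 was thus lower in KO in all 3 conditions, by 0.17 to 0.29. The immunoproteasome subunits were not called between genotypes in FBS or CMS.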

How the data were processed

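RNA-seq of cultured rat MSCs was deposited as a WT table and a KO table, each with counts and FPKM per gene for 9 libraries. The authors deposited whole-read counts, one column per library, without normalization, and FPKM values scaled per gene length and library total. Aligner, counter, strand setting and annotation: not given in the sources used here. Bowtie (0.12.2) and the mouse build mm10 appear in the notes the submitters gave on processing, with no role, although the IDs belong to rat Ensembl, so file coordinates were not used. All columns were mapped to samples.

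Genes with at least 1 FPKM in at least 3 libraries of a fit were tested with edgeR 4.0.16 (R 4.3.3): TMM scaling, quasi-likelihood F test on counts, Benjamini-Hochberg adjustment over all genes, called at an adjusted p under 0.05. The WT and KO fits used 9 libraries each, and comparisons between genotypes used all 18. The standard error was the log2 fold change divided by the square root of F. Alternatives were RLE scaling, no low filter, DESeq2 1.42.0, limma 3.58.1 on log2(FPKM + 1), a replicate block, each library left out in turn and, chosen after seeing the data, library totals only. Scripts were tested on simulated data.

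Genes were named by rule: the 6 catalytic subunits, the most abundant member of each role, the 5 highest and 5 lowest called members of each comparison, untested members, and the extreme called genes of each further list. Others were named after their values were seen. The values of 1 gene of a further list are not reported here. The members and lists were chosen with earlier results of these data known.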

Additional observations from a re-analysis of the deposited data

Results flagged for a closer look

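The response to serum or stretch over SSt differed between KO and WT MSCs, by the test of the difference itself in edgeR (adjusted p under 0.05 over all genes), for 11 proteasome members. Of the 13317 genes tested, 44.8% were called for CMS and 35.7% for FBS, and the shares of members lie below these backgrounds. Values are the KO response minus the WT response on the log2 scale. For CMS they were 0.57 for Psmd8, 0.50 for Psmd11, 0.42 for Adrm1, 0.33 for Psma6, 0.30 for Psmb3, 0.29 for Psmd3, 0.19 for Psmd1, 0.19 for Psmd2, -0.17 for Psma4, -0.17 for Psma7 and -0.50 for Psmb10. The CMS call of Psma4 was lost in 16 of 24 alternatives (adjusted p up to 0.149), that of Psmd1 in 6, and those of Psmd2, Psmd3 and Psmb3 in 2, 2 and 1. For FBS they were 0.33 for Psmd8, 0.30 for Psma6, 0.28 for Psmd11, 0.22 for Adrm1, -0.15 for Psma7 and -0.44 for Psmb10. The FBS calls of Adrm1, Psmb10, Psmd11 and Psma6 were lost in 18, 16, 14 and 2 of 24. The genotypes were deposited as separate tables, and processing and genotype cannot be told apart.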

How the results depend on the processing

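No member called in a comparison changed sign under any alternative. Psmb1, not called in KO minus WT for CMS (0.01), was called in the opposite direction with limma on FPKM (-0.13) and with library totals (-0.13), and the cause was not tested. The counts of called members against SSt moved by over 1.5 times only for KO CMS, which gave 31 with limma on FPKM and 31 with library totals only. WT CMS against WT FBS gave 0 with RLE scaling, 0 without the low filter, 0 with limma and 0 with library totals. At an unadjusted p under 0.05 these gave 10, 13, 11 and 9, with no share of all genes given at that threshold. KO CMS against KO FBS gave 4 without the filter, 2 with limma and 2 with library totals. KO minus WT gave, for FBS, 3 without the filter, 14 with limma and 13 with library totals, and for CMS 17 with limma. KO over WT gave 9 without the filter and 23 with library totals in SSt, and 9 with limma and 9 with library totals in CMS. Library totals were chosen after seeing the data. Same-numbered libraries did not deviate together (r from -0.068 to 0.086 in WT and -0.123 to 0.142 in KO). With a replicate block the count was 1 for WT CMS against WT FBS, 2 for KO CMS against KO FBS and 3 for KO minus WT in FBS, and the other 8 counts stayed within 1.5 times. Leaving out 1 library gave 0 to 2 for WT CMS against WT FBS, 0 to 10 for KO CMS against KO FBS, 3 to 7 and 9 to 15 for KO minus WT in FBS and CMS, and 7 to 16, 2 to 8 and 13 to 21 for KO over WT in SSt, FBS and CMS.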

Other observations

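Genes that work beside the proteasome were measured as further lists, compared with SSt. Of 12 deubiquitinases and shuttle receptors, 7 fell and 2 rose in KO CMS, 9 fell and 2 rose in KO FBS, and 7 fell and 3 rose in both WT CMS and WT FBS. Usp14, the deubiquitinase that docks on the 19S cap, fell by 0.51, 0.64, 0.36 and 0.44 on the log2 scale in KO CMS, KO FBS, WT CMS and WT FBS. The shuttle Rad23b fell by 0.34, 0.54, 0.41 and 0.53, and Ubqln2 by 0.67, 0.84, 0.25 and 0.35, all past the adjusted p in edgeR. Of 7 entries for ubiquitin genes and E1 enzymes, 2 rose in each comparison and 1, 2, 2 and 2 fell. Rps27a is counted under 2 gene IDs, and the split of reads between them is uncertain. In WT SSt these had 385, 593 and 488 FPKM against 442, 245 and 349. For both lists, the shares of all genes called higher were 30.8%, 30.3%, 34.6% and 33.7% in the same order. Those called lower were 30.7%, 29.5%, 32.3% and 32.7%.

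Zfand2a, which encodes an arsenite-inducible protein of the 19S cap, had 74.0, 96.9 and 91.1 FPKM in KO CMS, 52.2, 46.6 and 40.5 in KO FBS, and 23.1, 22.0 and 23.8 in KO SSt. In WT it had 62.3, 61.2 and 60.0 FPKM under CMS, 48.7, 47.1 and 49.7 under FBS, and 31.6, 33.0 and 32.2 under SSt. Within each genotype every CMS library lay above every FBS library, and every FBS library above every SSt library. The rise over SSt was 2.04, 1.08, 0.90 and 0.55 in KO CMS, KO FBS, WT CMS and WT FBS.

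Psmd10, a chaperone of cap assembly, differed in its response between genotypes. It had 12.9, 12.3 and 14.7 FPKM in KO CMS, 13.3, 11.0 and 9.35 in KO FBS, and 10.6, 11.1 and 9.91 in KO SSt, against 12.5, 11.4 and 11.1 in WT CMS, 8.17, 9.32 and 7.74 in WT FBS, and 19.3, 15.6 and 16.4 in WT SSt. It rose by 0.45 in KO CMS, fell by 0.57 in WT CMS and by 1.05 in WT FBS, and gave 0.16 in KO FBS, which was not called. The difference in response was 1.02 for CMS and 1.22 for FBS, both past the adjusted p in edgeR. Of the 11 assembly chaperones and adaptors, 2 rose and 3 fell in KO CMS, 0 rose and 5 fell in KO FBS, 0 rose and 5 fell in WT CMS, and 1 rose and 7 fell in WT FBS. The shares of all genes were 30.8%, 30.3%, 34.6% and 33.7% higher and 30.7%, 29.5%, 32.3% and 32.7% lower.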
